A study of Mus musculus with 10 samples.

Results

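The genes described here are 30 immediate early and early response genes of T cells together with Cd69 and Cd5, out of 19938 genes with a value on the arrays. They were taken by name, each as the probe set carrying that gene symbol, and every one of the 30 had exactly 1 such probe set. Gene expression was measured in regulatory T cells (Tregs), the suppressive T cells that carry the transcription factor Foxp3, sorted from the spleen of female C57BL/6 mice of 9 to 14 weeks with a red fluorescent reporter at Foxp3. The cells were CD4+ and reporter-positive in every group, and were split by CD62L, a lymph node homing receptor, by CD69, a surface marker of recent activation, and by Klrg1, which marks highly differentiated lymphocytes. FR3 Klrg1+ cells (CD62Llo CD69+ Klrg1+) had 1 array, FR3 Klrg1- cells (CD62Llo CD69+ Klrg1-) had 4, FR2 cells (CD62Llo CD69- Klrg1-) had 2 and FR1 cells (CD62Lhi CD69- Klrg1-) had 2. From 20 to 50 ng of total RNA per sample was amplified in 1 linear round before hybridisation to Affymetrix Mouse Gene ST 1.0 arrays. The labels speak of biological replicates and do not say whether spleens were pooled.

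Engagement of the T cell receptor (TCR) activates MAP kinases, calcium signalling and NF-kB, and within minutes these pathways switch on a set of genes that needs no new protein synthesis. Most of its members encode transcription factors, such as the Nr4a, Egr and AP-1 families, or feedback inhibitors, such as MAP kinase phosphatases and inhibitors of NF-kB. Their mRNAs are short-lived. They also respond to stimuli other than the TCR, including stress and handling of cells. In Tregs, TCR signals of this kind maintain the effector state, and CD69 on the surface is one of the earliest signs of activation.

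Values are RMA log2 intensities as the authors deposited them, so a difference of 1 is a doubling, and levels of different genes are not set against each other. The 9 grouped arrays fell into 2 sets that did not follow the gates. The first set held both FR1 arrays, both FR2 arrays and FR3 Klrg1- replicates 1 and 2. The second set held the FR3 Klrg1+ array and FR3 Klrg1- replicates 3 and 4. Pairwise correlations over all 35556 probe sets were 0.981 to 0.992 within the first set and 0.972 to 0.982 within the second. Between the sets they were 0.901 to 0.921, and the FR3 Klrg1- arrays of different sets correlated at 0.918 to 0.921. The labels give no reason for this split. Gate differences are therefore given within a set, and FR3 Klrg1- cells, the only group present in both, show the difference between the sets.

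The labelled cell type was checked on lists of marker genes. T cell markers averaged 10.87 to 11.36 on the grouped arrays, while the means of the B cell, plasma cell, macrophage, dendritic cell, neutrophil, NK cell, CD8 T cell, erythroid and platelet lists stayed at or below 7.19. These means are of different probe sets and compare no amounts of RNA between lists. Klrg1 was at 12.33 on the FR3 Klrg1+ array, against a mean of 7.37 on FR3 Klrg1- replicates 3 and 4. Between the 2 pairs of FR3 Klrg1- arrays, the T cell marker mean was 11.35 to 11.36 in replicates 1 and 2, against 10.94 to 10.99 in replicates 3 and 4. Of the 11 measured T cell markers 8 were higher and 3 lower in replicates 1 and 2, with a median difference of 0.38. Over all 19938 genes 9467 were higher and 10471 lower there, by any amount. Cd4 differed by 1.68 and Foxp3 by 0.89, while Cd3d differed by -0.83 and Il2ra by -0.72. All 14 macrophage and monocyte markers were lower in replicates 1 and 2, with differences from -0.74 to -0.03, so none reached 1 in size. Their mean was 5.26 to 5.37 in replicates 1 and 2, against 5.63 to 5.73 in replicates 3 and 4. The median difference of that list was -0.34. Of the 8 NK cell markers 2 were higher and 6 lower in replicates 1 and 2, with a median difference of -0.13. The largest of these in size was that of Tyrobp, which averaged 5.97 in replicates 1 and 2 and 7.90 in replicates 3 and 4. The part of these markers in the differences below was not tested.

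Promoter sequences are shown for 5 members, since most members moved together between the array sets and Egr2 moved the other way. Nr4a1, Fosb and Fos had the largest set differences among the members with a single RefSeq promoter window, Nr4a2 differed most between the gates, and Egr2 ran against the rest. Each sequence runs 5′ to 3′ from 250 bases before to 30 bases after the start of transcription (RefSeq, GRCm38.p6), and capitals mark motif matches. The windows are chr15:101266596-101266875 on the plus strand for Nr4a1, chr7:19310016-19310295 on the minus strand for Fosb, chr12:85473640-85473919 on the plus strand for Fos, chr2:57123974-57124253 on the minus strand for Nr4a2 and chr10:67537619-67537898 on the plus strand for Egr2, which has 5 windows of which the middle one was taken.
Nr4a1: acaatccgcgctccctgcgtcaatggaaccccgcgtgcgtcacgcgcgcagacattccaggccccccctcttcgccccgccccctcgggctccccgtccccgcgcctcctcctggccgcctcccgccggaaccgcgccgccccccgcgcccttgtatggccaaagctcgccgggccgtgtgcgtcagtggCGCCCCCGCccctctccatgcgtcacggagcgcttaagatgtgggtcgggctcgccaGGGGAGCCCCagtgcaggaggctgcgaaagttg
Fosb: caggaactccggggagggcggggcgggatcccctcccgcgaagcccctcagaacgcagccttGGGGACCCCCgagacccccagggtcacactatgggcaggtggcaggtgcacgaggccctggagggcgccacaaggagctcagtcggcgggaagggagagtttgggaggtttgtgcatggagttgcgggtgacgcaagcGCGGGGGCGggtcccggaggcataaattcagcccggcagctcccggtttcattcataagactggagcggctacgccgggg
Fos: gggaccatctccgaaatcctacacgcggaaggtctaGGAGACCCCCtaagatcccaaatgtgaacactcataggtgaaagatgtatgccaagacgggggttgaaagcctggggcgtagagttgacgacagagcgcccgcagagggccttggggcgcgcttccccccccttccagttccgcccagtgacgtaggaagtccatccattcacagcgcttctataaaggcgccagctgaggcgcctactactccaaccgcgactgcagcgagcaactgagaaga
Nr4a2: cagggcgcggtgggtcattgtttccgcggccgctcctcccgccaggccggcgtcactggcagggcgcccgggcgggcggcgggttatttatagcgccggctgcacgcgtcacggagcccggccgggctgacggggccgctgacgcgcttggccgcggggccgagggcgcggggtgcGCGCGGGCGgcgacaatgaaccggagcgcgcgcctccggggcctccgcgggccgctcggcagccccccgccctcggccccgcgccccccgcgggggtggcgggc
Egr2: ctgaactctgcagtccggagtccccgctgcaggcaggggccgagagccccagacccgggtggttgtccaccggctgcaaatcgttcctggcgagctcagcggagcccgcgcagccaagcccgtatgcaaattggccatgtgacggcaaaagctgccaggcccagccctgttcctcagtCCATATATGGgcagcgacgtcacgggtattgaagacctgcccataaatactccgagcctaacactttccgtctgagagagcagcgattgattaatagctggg
The capitals in Nr4a1 are an EGR site starting at position -60 and an NF-kB site starting at position -3, counted so that 0 is the first transcribed base. Fosb carries an NF-kB site at -188 and an EGR site at -50, Fos an NF-kB site at -214, Nr4a2 an EGR site at -74, and Egr2 the CArG box of a serum response element at -72.

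RefSeq windows were given for 23 of the 30 members, and 1 window per gene, of 250 bases before to 50 bases after the start, was searched on both strands. The NF-kB motif was found in 8 of the 23 members (34.8%), against 4.38% of 27025 genes. Those 8 were Nr4a1, Fos, Fosb, Fosl2, Ier3, Rel, Nfkbia and Nfkbid. The EGR motif GCGNGGGCG was found in 7 members (30.4%), against 5.51% of genes, the cyclic AMP response element TGACGTCA in 3 (Dusp1, Nfkbid and Btg2; 13.0% against 1.80%), and the CArG box in 2 (Egr2 and Zfp36; 8.70% against 1.55%). The AP-1 motif TGANTCA was found in 1 member, Zfp36l1 (4.35% against 7.89%). These matches describe the letters of the windows and are not measurements of binding.

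The members differed in how far they stood above the dim genes of the array. Ier3 was the dimmest, with 5.56 to 6.39 on 8 of the 9 grouped arrays and a lowest value at percentile 32.2 of all genes, and 17 members were at or above percentile 75 on every grouped array. The median over the members was 10.60 to 10.84 on the arrays of the first set and 8.60 to 8.79 on those of the second, while the median over all genes was 6.22 to 6.39. The members were thus brighter as a group on all 6 arrays of the first set, whichever gate the cells came from.

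**Figure D1:**
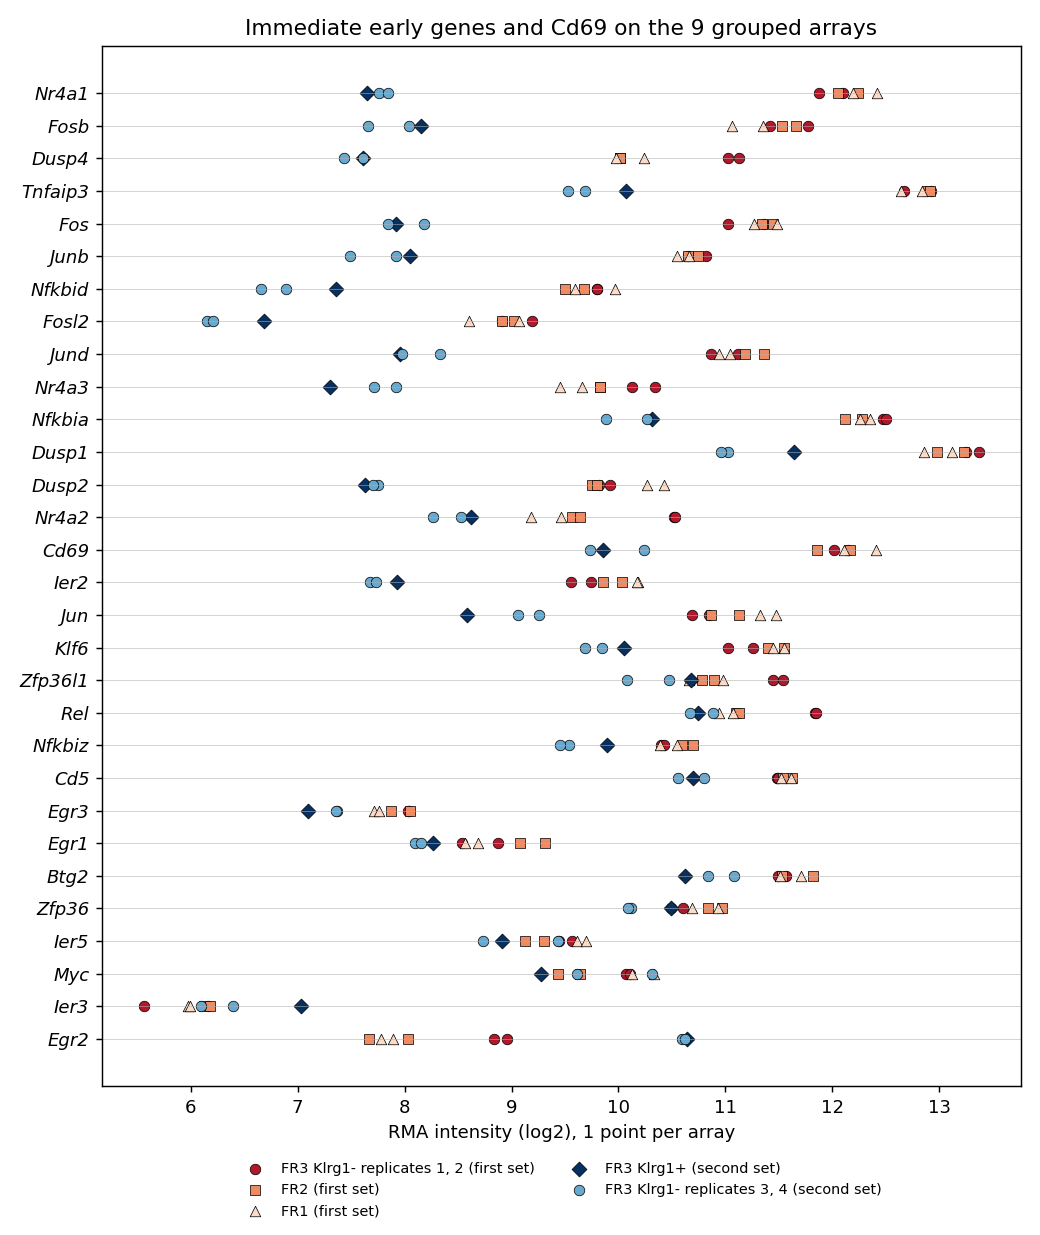
Level of each of the 30 members (RMA log2 intensity) on the 9 grouped arrays, with 1 point per array and colour and marker by group. Members are ordered by the difference between FR3 Klrg1- replicates 1 and 2 and replicates 3 and 4. Colour separates the sets of arrays for the members at the top of the order, Nr4a1 first, while Egr2 at the other end is brightest on the second set.

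Within one gate, FR3 Klrg1-, 20 of the 30 members were higher by at least 1 in replicates 1 and 2 than in replicates 3 and 4 with no overlap between the arrays, and 1 member was lower by that much. Over all genes 5.27% stood higher and 5.07% lower by the same measure. The members' median difference was 2.03, against -0.02 for all genes, and 15 members differed by 2 or more. The arrays of the 2 pairs did not overlap for 28 of the 30, the exceptions being Myc and Ier3, and did not overlap for 66.7% of all genes. Since the sets were found from the correlations of these same arrays, these differences are described without a test. FR3 Klrg1- replicates 1 and 2 also enter the comparisons with FR2 and FR1 below, and replicates 3 and 4 enter the comparison with FR3 Klrg1+, so those comparisons share arrays with this one. In bulk samples, fewer cells expressing a gene and less RNA per cell cannot be told apart.

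The Nr4a family, orphan nuclear receptors that follow the strength of TCR signals, was high in the first set. Nr4a1, which encodes Nur77, was at 11.88 and 12.10 on FR3 Klrg1- replicates 1 and 2, against 7.76 and 7.84 on replicates 3 and 4, a difference of 4.19 or 18.2-fold. It ranked 3 of 19938 genes by this difference. Its other values followed the sets as well, with 7.65 in FR3 Klrg1+ cells, 12.05 and 12.24 in FR2 and 12.19 and 12.42 in FR1. Nr4a3 was at 10.13 and 10.34 on replicates 1 and 2 and at 7.71 and 7.92 on replicates 3 and 4. Nr4a2 was at 10.52 and 10.53 on replicates 1 and 2 and at 8.53 and 8.27 on replicates 3 and 4. The differences of these relatives were 2.42 and 2.12, and in all 3 genes the 2 pairs of arrays lay far apart.

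The Egr zinc finger factors did not move as 1 family. Egr2, which restrains T cell activation, was at 8.84 and 8.96 on FR3 Klrg1- replicates 1 and 2, against 10.59 and 10.62 on replicates 3 and 4, a difference of -1.71 and the only one of the 30 that was lower by at least 1. It was also high in FR3 Klrg1+ cells of the second set (10.64) and low in FR2 (7.67 and 8.03) and FR1 (7.78 and 7.89). Egr1, the prototype of the family, was at 8.54 and 8.87 on replicates 1 and 2 and at 8.10 and 8.15 on replicates 3 and 4. Egr3 was at 8.04 and 8.03 on replicates 1 and 2 and at 7.37 and 7.36 on replicates 3 and 4. Egr1 and Egr3 were thus higher in the first set, by 0.58 and 0.67.

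All 6 AP-1 subunits, the Fos and Jun proteins that pair to bind AP-1 sites, were higher in replicates 1 and 2 by 1.61 to 3.75. Fosb was at 11.42 and 11.77 on replicates 1 and 2, against 8.04 and 7.66 on replicates 3 and 4, a difference of 3.75. Fos was at 11.02 and 11.36, against 7.84 and 8.18, a difference of 3.18 or 9.05-fold. Junb differed by 3.03, Fosl2 by 2.87 and Jund by 2.84. Jun differed least of the 6, with 10.69 and 10.85 on replicates 1 and 2, against 9.06 and 9.26 on replicates 3 and 4. For each of the 6, every array of the first set lay above every array of the second.

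The immediate early response genes Ier2, Ier3 and Ier5 share a name rather than a function. Ier2, which encodes a nuclear protein, was at 9.56 and 9.74 on replicates 1 and 2, against 7.68 and 7.73 on replicates 3 and 4. Ier3 was at 5.56 and 6.16 on replicates 1 and 2 and at 6.39 and 6.10 on replicates 3 and 4, so its arrays overlapped. Ier5 was at 9.44 and 9.57 on replicates 1 and 2 and at 8.73 and 9.43 on replicates 3 and 4. Of these genes only Ier2 differed by at least 1 between the pairs.

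The phosphatases that switch off MAP kinases were all higher in the first set. Dusp4 was at 11.13 and 11.02 on replicates 1 and 2, against 7.43 and 7.61 on replicates 3 and 4, a difference of 3.56 or 11.8-fold. Dusp1 was at 13.25 and 13.37 on replicates 1 and 2, against 11.02 and 10.96 on replicates 3 and 4. Dusp2 was at 9.92 and 9.82 on replicates 1 and 2, against 7.75 and 7.70 on replicates 3 and 4. These last 2 differences came to 2.32 and 2.15, with the arrays well apart.

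Among the NF-kB genes, Tnfaip3, Nfkbid and Nfkbia differed most. Tnfaip3 encodes A20, an enzyme that removes activating ubiquitin chains upstream of NF-kB, and it was at 12.67 and 12.92 on replicates 1 and 2, against 9.53 and 9.69 on replicates 3 and 4. Nfkbid, a nuclear IkB protein that promotes Foxp3 expression, was at 9.80 and 9.80 on replicates 1 and 2, against 6.66 and 6.89 on replicates 3 and 4. Nfkbia, the inhibitor IkB-alpha, was at 12.47 and 12.50, against 9.88 and 10.27. The differences were 3.19, 3.03 and 2.40, whereas Rel, the c-Rel subunit needed for Treg development, differed by 1.07 and Nfkbiz, another nuclear IkB protein, by 0.92.

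The remaining members are factors of mRNA decay, growth and surface receptors. Among the factors that speed mRNA decay, Zfp36l1 differed by 1.22, Btg2 by 0.57 and Zfp36 by 0.44. The zinc finger factor Klf6 differed by 1.37, while Myc, the regulator of cell growth, was at 10.07 and 10.11 on replicates 1 and 2 and at 9.61 and 10.31 on replicates 3 and 4. The inhibitory receptor Cd5, whose level follows TCR signal strength, was at 11.48 and 11.49 on replicates 1 and 2, against 10.56 and 10.80 on replicates 3 and 4, a difference of 0.81. Cd69, whose product holds cells in tissue by pulling a sphingosine phosphate receptor off the surface, was at 12.02 and 12.15 on replicates 1 and 2, against 10.24 and 9.73 on replicates 3 and 4. This was a difference of 2.11 or 4.3-fold between arrays of cells that had all been sorted as CD69+.

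For 27 of the 30 members the difference between the sets was larger than each of the 4 gate differences, the exceptions being Ier5, Myc and Ier3. The same was true of 46.8% of all genes. For 25 members every array of the first set lay above every array of the second, against 18.6% of all genes. The exceptions were Zfp36l1, Ier5, Myc and Ier3, whose arrays overlapped, and Egr2, which was higher in the second set.

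**Figure D2:**
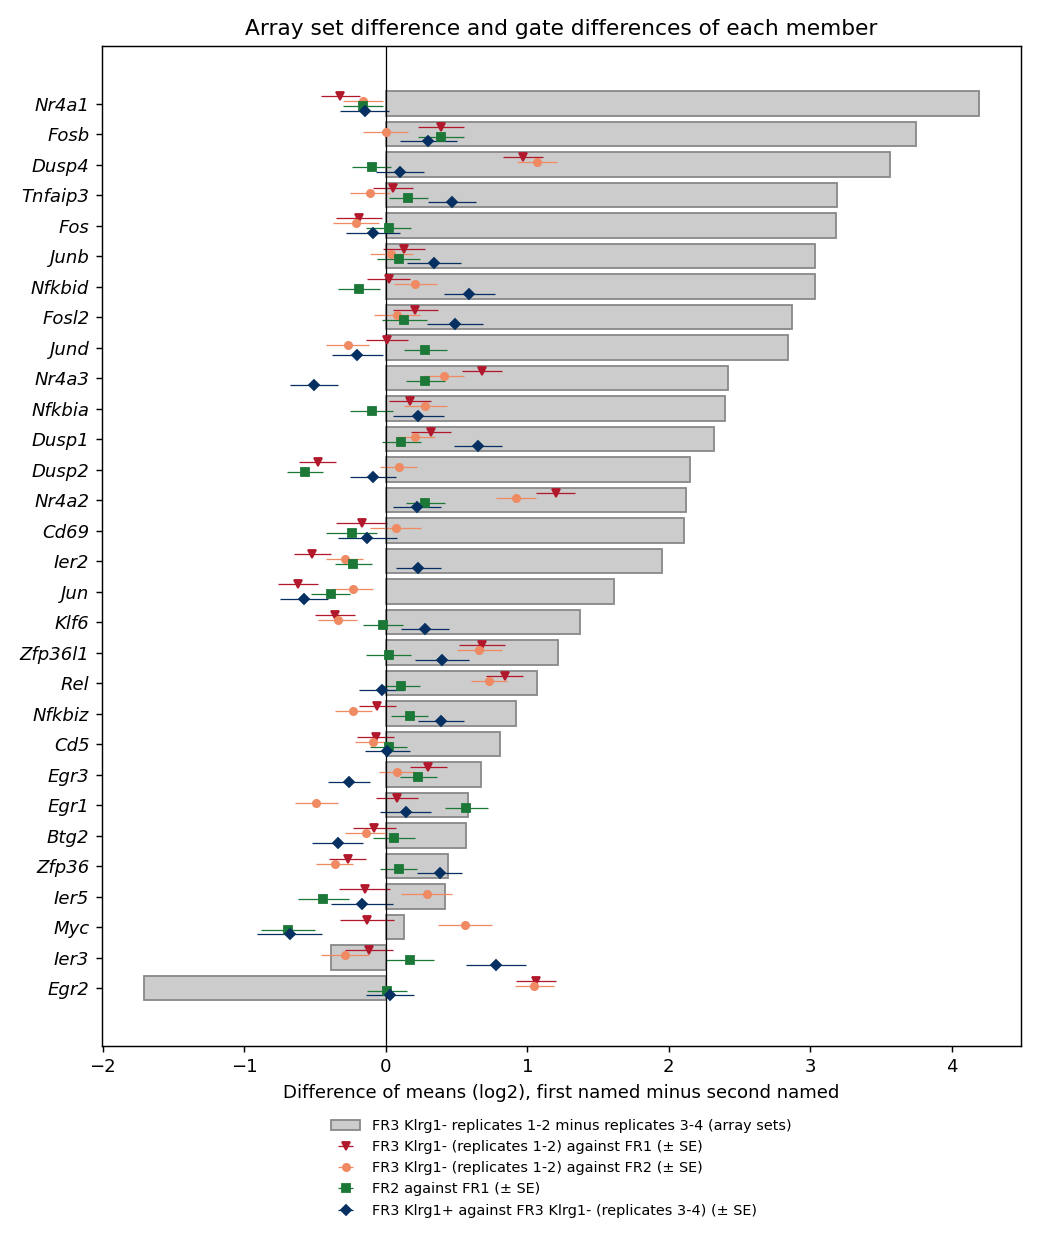
Bars show the difference between FR3 Klrg1- replicates 1 and 2 and replicates 3 and 4 for each member (log2), and points show the 4 gate differences with their SE from the limma fit. The bars exceed the points for 27 of the 30 members, and the bar of Egr2 alone points down by more than 1.

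The gates were compared inside the first set with limma's moderated test and Benjamini-Hochberg adjustment over all 19938 genes, at an adjusted p under 0.05. All errors below are SE of the fit, with 2 arrays per group unless stated. CD69+ FR3 Klrg1- cells (replicates 1 and 2) against CD69- FR2 cells asks what accompanies surface CD69 among CD62Llo Tregs. In this comparison 5 of the 30 members were higher and none lower, where 2.81% of all genes were higher and 1.94% lower. The 5 were Dusp4, Egr2, Nr4a2, Rel and Zfp36l1. At an unadjusted p under 0.05 there were 11 members, where 15.7% of all genes passed. The quartiles of the differences were -0.22 and 0.29 over the members, against -0.13 and 0.13 over all genes.

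Dusp4 was at 11.13 and 11.02 in FR3 Klrg1- cells, against 10.01 and 10.01 in FR2 cells, and rose by 1.07 ± 0.14 (adjusted p = 0.000279, limma). Egr2 was at 8.84 and 8.96, against 7.67 and 8.03, and rose by 1.05 ± 0.14 (adjusted p = 0.00045, limma). Nr4a2 was at 10.52 and 10.53, against 9.57 and 9.64, and rose by 0.92 ± 0.14 (adjusted p = 0.00128, limma). In each of these 3 genes both FR3 arrays lay above both FR2 arrays, and the call held in all 9 fits that left out 1 array. Rel was at 11.84 and 11.85 in FR3 Klrg1- cells, against 11.10 and 11.13 in FR2 cells, a rise of 0.73 ± 0.13 (adjusted p = 0.00373, limma). Zfp36l1 was at 11.45 and 11.54, against 10.89 and 10.78, a rise of 0.66 ± 0.16 (adjusted p = 0.0234, limma). Rel lost its call without FR2 replicate 1 (adjusted p = 0.0565, limma), and Zfp36l1 lost its call without any 1 of the 4 arrays compared, with adjusted p between 0.12 and 0.175 by limma. Without FR2 replicate 1 the count of members called was 3.

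Most of the module did not differ detectably between these CD69+ and CD69- cells. Nr4a1 averaged 11.99 in FR3 Klrg1- cells and 12.14 in FR2 cells, Fos 11.19 and 11.39, Fosb 11.60 and 11.59, and Tnfaip3 12.79 and 12.90. Cd69 itself was at 12.02 and 12.15 in the CD69+ FR3 cells, against 11.86 and 12.17 in the CD69- FR2 cells, so the arrays overlapped. Its difference was 0.07 ± 0.18 with a 95% interval from -0.30 to 0.45 (adjusted p = 0.918, limma). The gate was set on the protein, while the arrays measured the mRNA. The median difference over the members was 0.06, against 0 for all genes. The lowest and highest differences over the members were -0.49, for Egr1, and 1.07, for Dusp4.

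Against CD62Lhi CD69- FR1 cells, FR3 Klrg1- cells (replicates 1 and 2) had 6 members higher and 3 lower, where 4.39% of all genes were higher and 3.79% lower. At an unadjusted p under 0.05 there were 14 members, where 18.2% of all genes passed. This comparison shares its FR3 arrays with the one above. Nr4a2 was at 10.52 and 10.53 in FR3 Klrg1- cells, against 9.18 and 9.46 in FR1 cells, a rise of 1.20 ± 0.14 (adjusted p = 3.84e-05, limma). Egr2 rose by 1.06 ± 0.14 (adjusted p = 0.000135), Dusp4 by 0.97 ± 0.14 (0.000221) and Rel by 0.84 ± 0.13 (0.000488). These 4 were called in all 9 fits that left out 1 array. Nr4a3 was at 10.13 and 10.34, against 9.45 and 9.66, a rise of 0.68 ± 0.14 (adjusted p = 0.00478, limma), and Zfp36l1 rose by 0.68 ± 0.16 (adjusted p = 0.0113).

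The 3 members that fell against FR1 were an AP-1 subunit, an immediate early response gene and a phosphatase. Jun was at 10.69 and 10.85 in FR3 Klrg1- cells, against 11.32 and 11.47 in FR1 cells, and fell by 0.62 on the log2 scale (SE 0.14, adjusted p = 0.0109, limma). Ier2 was at 9.56 and 9.74, against 10.18 and 10.17, and fell by 0.52 (SE 0.13, adjusted p = 0.0191). Dusp2 was at 9.92 and 9.82, against 10.27 and 10.43, and fell by 0.48 (SE 0.13, adjusted p = 0.0289). Both FR3 arrays lay below both FR1 arrays in each gene. The count of members called was 5 without FR1 replicate 1, without FR3 Klrg1- replicate 1 and without FR3 Klrg1- replicate 2. Ier2 and Dusp2 lost their calls without any 1 of the 4 arrays compared, Jun without FR1 replicate 2 or FR3 Klrg1- replicate 1, Nr4a3 without FR1 replicate 1 or FR3 Klrg1- replicate 2, and Zfp36l1 without FR1 replicate 1 or either FR3 Klrg1- replicate.

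CD62Llo FR2 against CD62Lhi FR1, both CD69-, showed 1 member higher and 1 lower, where 1.96% of all genes were higher and 2.30% lower. At an unadjusted p under 0.05 there were 6 members, where 17.2% of all genes passed. Egr1 was at 9.08 and 9.31 in FR2 cells, against 8.56 and 8.69 in FR1 cells, and rose by 0.57 ± 0.15 (adjusted p = 0.0377, limma). Dusp2 was at 9.75 and 9.80 in FR2 cells, against 10.27 and 10.43 in FR1 cells, and fell by 0.57 (SE 0.13, adjusted p = 0.0182, limma). Neither call held without any 1 of the 4 arrays compared, and the count was then 0 by limma, with 3 to 7 members at an unadjusted p under 0.05. The count was 4 when either FR3 Klrg1- replicate 3 or replicate 4 was left out. Myc, at 9.43 and 9.64 in FR2 and 10.13 and 10.33 in FR1, missed the threshold with a difference of -0.69 ± 0.19 (adjusted p = 0.0508, limma). It passed under 6 other settings of the fit and with either FR3 Klrg1- replicate 3 or replicate 4 left out, with adjusted p between 0.00442 and 0.049, while Egr1 lost its call with array medians subtracted (adjusted p = 0.0774, limma). Cd69 averaged 12.02 in FR2 and 12.26 in FR1, a difference of -0.24 ± 0.18 with a 95% interval from -0.62 to 0.13.

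**Figure D3:**
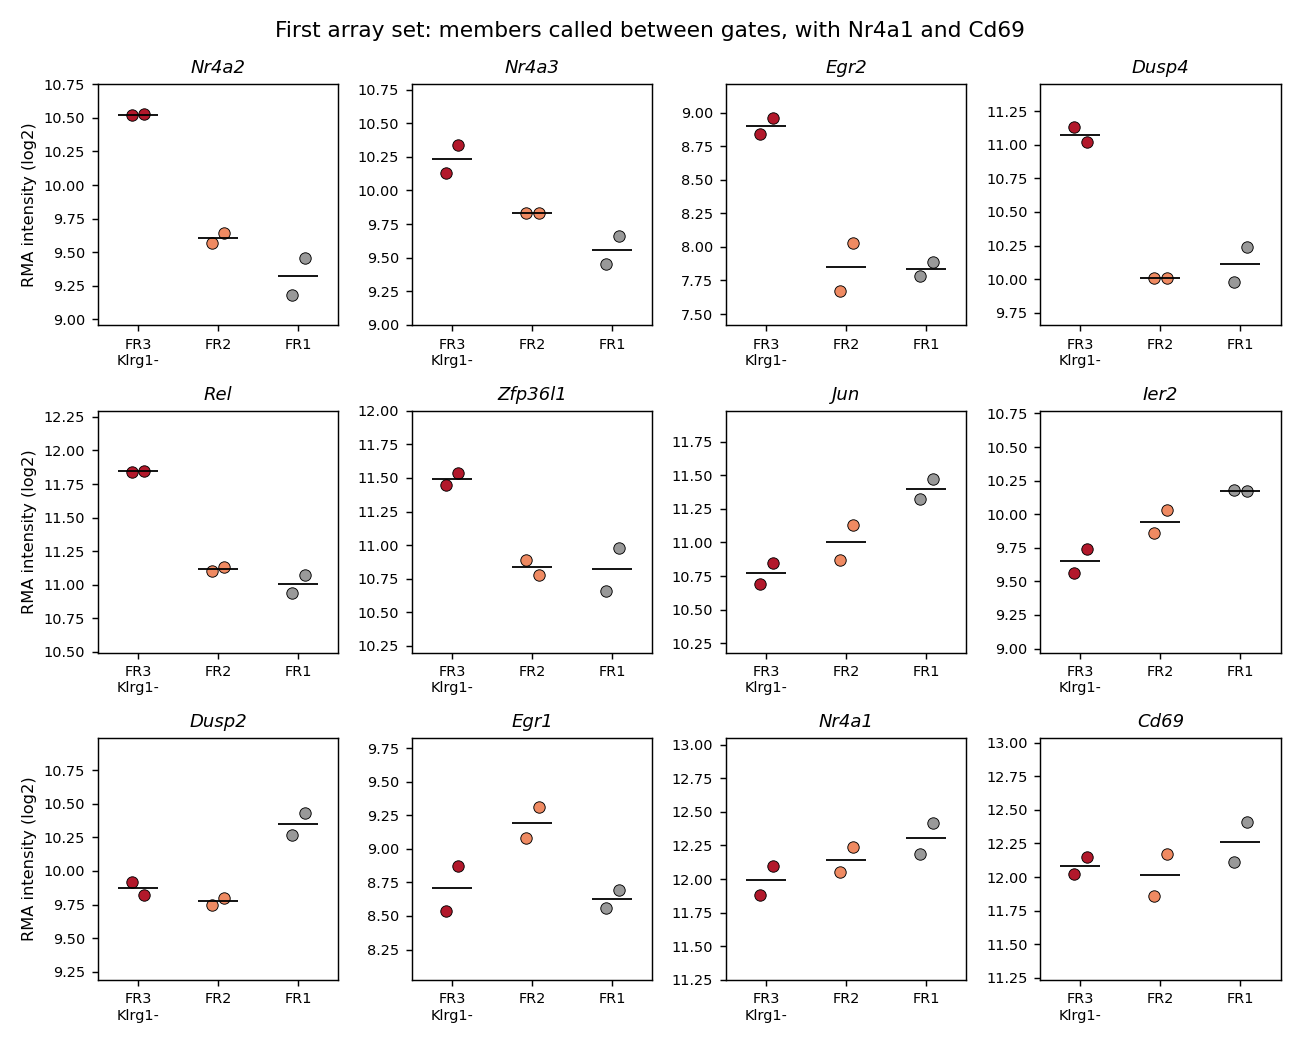
Level (RMA log2 intensity) of 12 members on the arrays of the first set, with FR3 Klrg1- left of FR2 and FR2 left of FR1, points for arrays and lines for means. Nr4a2, Egr2, Dusp4 and Rel stand above both CD69- groups in FR3 Klrg1- cells, Dusp2 is highest in FR1, and Cd69 overlaps between the gates.

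Across the 3 gates of the first set, the order of Nr4a2 was FR3 Klrg1-, FR2, FR1, and FR2 stood 0.28 ± 0.14 above FR1 without passing the threshold (adjusted p = 0.324, limma). Egr2, Dusp4 and Rel had FR3 Klrg1- cells on top, and their differences of FR2 minus FR1 were 0.01 ± 0.14, -0.10 ± 0.14 and 0.11 ± 0.13, none past the threshold. Dusp2 ran the other way, with FR1 on top and FR3 Klrg1- and FR2 cells 0.09 ± 0.13 apart. Jun had the order FR1, FR2, FR3 Klrg1-, and only its outer pair differed past the threshold. Egr1 was highest in FR2, and FR3 Klrg1- cells stood 0.49 ± 0.15 below FR2 by a difference that missed the threshold (adjusted p = 0.0727, limma). That difference passed under 5 other settings and with either FR3 Klrg1- replicate 3 or replicate 4 left out, with adjusted p between 0.0279 and 0.0495 by limma.

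Inside the second set, the 1 FR3 Klrg1+ array was compared with FR3 Klrg1- replicates 3 and 4, with the spread of the lone array taken from the other groups. Of the 30 members 1 was higher and none lower, where 2.14% of all genes were higher and 2.82% lower. Dusp1 was at 11.64 in FR3 Klrg1+ cells, against 11.02 and 10.96 in FR3 Klrg1- cells, and rose by 0.65 ± 0.17 (adjusted p = 0.0425, limma). It was called in 2 of the 8 fits that left out 1 array, those without an FR1 array, and the highest adjusted p among the others was 0.0654. At an unadjusted p under 0.05 there were 10 members, where 19.9% of all genes passed. The count of members called was 0 by limma (10 unadjusted) without FR2 replicate 1 or without FR2 replicate 2, and 2 without FR3 Klrg1- replicate 3. Over the other settings tried, 0 to 5 members were called.

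Several further members lay close to the threshold in FR3 Klrg1+ cells. Ier3 was at 7.03, against 6.39 and 6.10, a difference of 0.78 ± 0.21 (adjusted p = 0.0504, limma), and it passed under 5 other settings and in 3 fits that left out 1 array, with adjusted p between 0.0244 and 0.049. Jun was at 8.58, against 9.06 and 9.26, a difference of -0.58 ± 0.17 (adjusted p = 0.0709, limma), and Nfkbid was at 7.36, against 6.66 and 6.89, a difference of 0.59 ± 0.18 (adjusted p = 0.081, limma). Jun passed under 2 other settings, Nfkbid under 3 and Tnfaip3, with a difference of 0.47 ± 0.17, under 1. Myc fell furthest of the members, at 9.28 against 9.61 and 10.31. Its difference of -0.68 ± 0.23 missed the threshold, and leaving out 1 array gave -1.03 to -0.33. Nr4a1 was at 7.65 in FR3 Klrg1+ cells and Egr2 at 10.64, against means of 7.80 and 10.60 in FR3 Klrg1- cells. Cd69 was at 9.86, against 10.24 and 9.73, a difference of -0.13 ± 0.21 with a 95% interval from -0.59 to 0.33. The macrophage marker mean was 5.24 on the FR3 Klrg1+ array, against 5.63 and 5.73, and 3 of its 14 genes were lower and 1 higher past the threshold. Its part in these differences was not tested.

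Counting all 4 gate comparisons, 19 of the 30 members passed the threshold in none and 11 in at least 1, where 14.5% of all genes passed in at least 1. The 19 included Nr4a1, Egr3, Fos, Fosb, Fosl2, Junb, Jund, every inhibitor of NF-kB in the list, Myc, Klf6, Cd69 and Cd5. These comparisons share arrays, so their counts are not independent of each other.

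Other genes of the same responses were read from lists chosen for this purpose. Of 36 further immediate early genes, 28 were higher by at least 1 in FR3 Klrg1- replicates 1 and 2 than in replicates 3 and 4, none was lower, and the median difference was 1.77. Gadd45b, a stress sensor that activates MAP kinases, averaged 11.59 in replicates 1 and 2 and 7.37 in replicates 3 and 4, a difference of 4.23. The kinases Sik1 and Pim1 differed by 3.56 and 3.34 and the factor Klf4 by 2.78. Of the genes induced later by the TCR 9 of 20 were higher and none lower, with a median of 0.73 and Tnfrsf1b (1.98) and Nfkb2 (1.91) at their head. Of 21 measured genes of proximal TCR signalling 2 were higher (Zap70 by 1.23 and Bcl10 by 1.00) and none lower, with a median of 0.63. The 14 measured heat shock and stress genes held 3 higher and 2 lower, with a median of 0.52, among them Ddit4 at 1.97, Hspa5 at 1.47 and Hspe1 at -1.72. For all genes the median was -0.02, with 5.27% higher and 5.07% lower by the same measure.

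Between FR3 Klrg1- cells (replicates 1 and 2) and FR2 cells the calls among the later genes were the more numerous for the size of the list. Of the 20 later genes 10 were higher and none lower by limma, with a median difference of 0.50. Over all genes 2.81% were higher and 1.94% lower. The costimulatory receptor Tnfrsf9 averaged 11.80 in FR3 Klrg1- cells and 9.36 in FR2 cells, a rise of 2.44 ± 0.13 (adjusted p = 1.47e-07, limma). The activation marker Cd83 rose by 1.89, and the inhibitory receptors Pdcd1 and Lag3 by 1.67 and 1.40. Of the 36 further immediate early genes 8 were higher and 1 lower, with a median of 0.14. Bhlhe40, a repressor induced by activation, rose by 1.34 ± 0.17 (adjusted p = 0.000273, limma), and Klf2, a factor of resting T cells, fell by 1.29 (SE 0.15, adjusted p = 0.000136, limma).

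The remaining gate comparisons were read in the same way, beside the shares of all genes past the threshold. These shares were 4.39% higher and 3.79% lower for FR3 Klrg1- against FR1, and 1.96% and 2.30% for FR2 against FR1. For FR3 Klrg1+ against FR3 Klrg1- they were 2.14% and 2.82%. Against FR1, FR3 Klrg1- cells had 15 of 20 later genes higher and 1 lower (median 0.89), and 7 of 36 further immediate early genes higher and 4 lower (median 0.09). In FR2 against FR1 the counts were 6 higher and 1 lower of the later genes, led by Icos (1.48 ± 0.16), and 4 higher and 5 lower of the immediate early genes, among them Atf3 (1.03 ± 0.17) and Dusp10 (-0.96 ± 0.14). In FR3 Klrg1+ against FR3 Klrg1- cells (replicates 3 and 4) each list had 3 genes higher and none lower. The later genes were Prdm1, Pdcd1 and Tnfrsf18, and the immediate early genes were Pim1, Dusp5 and Rgs2.

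Proximal TCR signalling and heat shock genes were counted in the same comparisons. Over all genes 2.81% were higher and 1.94% lower against FR2, and the shares in the other comparisons were as given above. In FR3 Klrg1- cells against FR2, Zap70 rose by 0.73 ± 0.13 and Prkcq fell by 0.74 (SE 0.13), and these were the only 2 of 21 signalling genes past the threshold. Against FR1, 5 signalling genes were higher and 2 lower, led by Nfatc1 (1.19 ± 0.14). In FR2 against FR1, 3 were higher (Malt1, Nfatc1 and Nfatc2), and in FR3 Klrg1+ against FR3 Klrg1- cells 2 were lower (Bcl10 and Cd28). Of the 14 heat shock and stress genes 1 was higher against FR2 (Hspe1), 1 was higher against FR1 (Hspb1), 2 were lower in FR2 against FR1 (Dnajb4 and Hspe1), and in FR3 Klrg1+ cells none passed by limma.

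**Figure D4:**
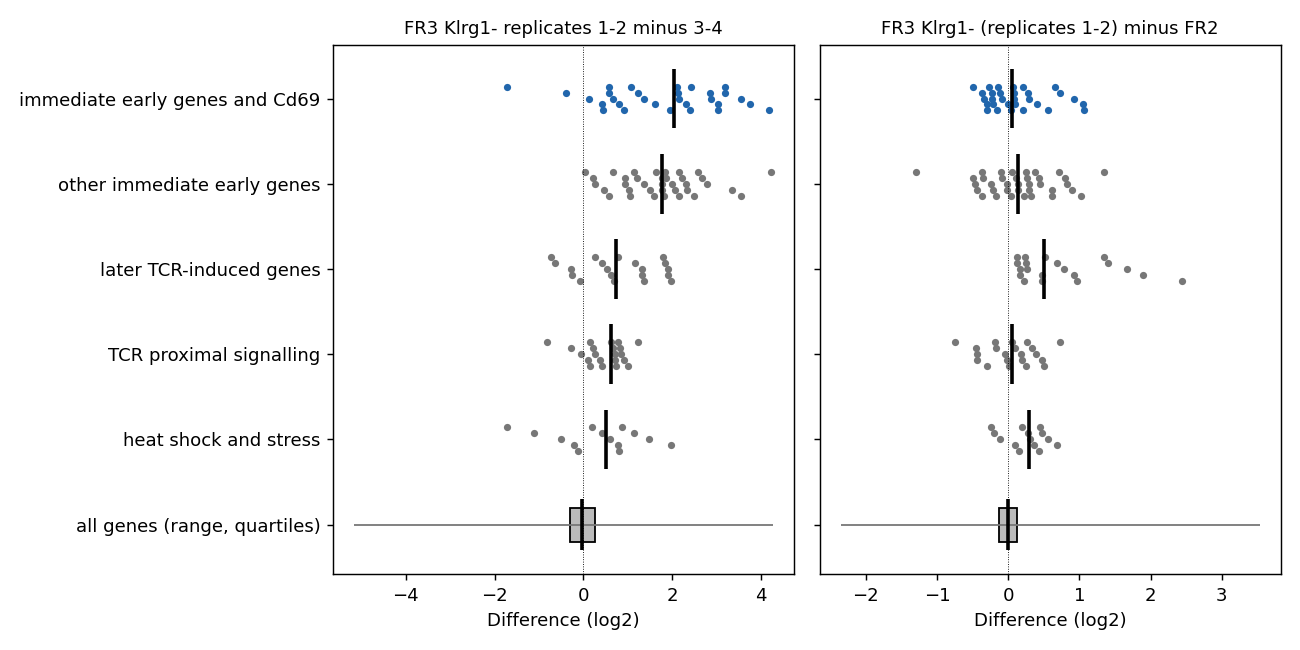
Differences (log2) for the 30 members and 4 further gene lists, with FR3 Klrg1- replicates 1 and 2 minus replicates 3 and 4 in one panel and FR3 Klrg1- replicates 1 and 2 minus FR2 in the other, points for genes and lines for medians, and all genes drawn as range and quartiles. The members (median 2.03) and the other immediate early genes (1.77) stand highest between the sets, and the later TCR-induced genes (0.50) stand highest between the gates.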

How the data were processed

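RNA of sorted spleen Tregs was measured on 10 arrays, of which 9 could be grouped by their labelled markers. Per the submitters' processing notes the deposited values are log2 intensities from RMA. The sources used here give neither its version nor whether the arrays were normalized together. Their range was checked against that unit. Of 35556 probe sets, 21789 had 1 gene symbol, 1621 had several and 12146 were not in the probe table. The brightest probe set per symbol left 19938 genes, with no filter on dim genes.

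One limma 3.58.1 fit (R 4.3.3) over the 9 grouped arrays had a mean for each group, with FR3 Klrg1- replicates 1 and 2 and replicates 3 and 4 kept apart, and 4 residual degrees of freedom. It gave the 4 gate comparisons, two-sided, with Benjamini-Hochberg adjustment over all genes at 0.05. The number of arrays limits the precision. The difference between the array sets was described without a test. A member counts as moved there if it differs by at least 1 with arrays that do not overlap. Promoter motifs were searched with Python 3.11.15. The fit was tested on simulated data.

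Members named are all 30. From each further list up to 4 genes per comparison are named, those with the largest change past the threshold. Of the markers, Klrg1, Cd4 and Foxp3 are named as markers used in sorting. Cd3d and Il2ra are named because they were lower in FR3 Klrg1- replicates 1 and 2, and Tyrobp as the highest gene of the NK cell list. The members, lists and tests were chosen with earlier results of these data known. Alternatives were an intensity trend, robust variances, a filter at percentile 40, quantile normalization, array medians subtracted, the mean of a gene's probe sets, only the arrays compared, array weights, a replicate block, no array set term, a fold limit and leaving out each array. One array, titled FR3 with the marker text of FR1, entered no comparison.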

Additional observations from a re-analysis of the deposited data

Results flagged for a closer look

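Ier5 in FR3 Klrg1- cells was set apart by 1 array. The 4 arrays read 9.44, 9.57, 8.73 and 9.43 for replicates 1 to 4, and the gap between the lowest array and the next was 0.836 of the whole range, above the Dixon limit for 4 samples. All 30 members were examined in this group. The limit flags about 1 in 20 groups by chance when the 4 values come from 1 population. These 4 arrays come from both array sets, with the lowest, replicate 3, in the second, so that rate does not apply here.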

How the results depend on the processing

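Counts of members called are out of 30 by limma. Without an array set term, with the 4 FR3 Klrg1- arrays as 1 group, the count was 0 in every gate comparison, with 1 member at an unadjusted p under 0.05 in FR2 against FR1, 5 in FR3 Klrg1- against FR2, 5 against FR1 and 2 in FR3 Klrg1+ against FR3 Klrg1-. Over all genes that setting called 52, 55, 439 and 22, against 850, 948, 1632 and 989. Differences then reversed for Nr4a2 (-0.14) and Dusp4 (-0.71) against FR2, for Nr4a3 (-0.53) and Dusp4 (-0.81) against FR1, and for Dusp1 in FR3 Klrg1+ cells (-0.51). That setting puts both array sets into 1 group mean. When calls also had to reach a log2 change of 1 in size, the counts were 0, 2, 2 and 0 (all genes 158, 145, 429 and 212), with 6, 11, 14 and 10 at an unadjusted p under 0.05. In FR3 Klrg1+ against FR3 Klrg1- the count of 1 became 5 with an intensity trend, 2 with robust variances, 4 without genes under percentile 40, 3 with quantile normalization, and 0 both with array medians subtracted and with array weights (9 and 10 unadjusted). Over all genes these settings called 1251, 1001, 1147, 1253, 899 and 722 in the same order, against 989, so both counts rose or fell together there. With only the arrays compared the count over all genes fell to 744, while that of members stayed at 1. The cause was not tested. Leaving out each array gave 0 to 4 for FR2 against FR1, 3 to 7 for FR3 Klrg1- against FR2, 5 to 9 against FR1 and 0 to 2 in FR3 Klrg1+ cells. The count between the array sets was 21, was 20 to 21 when an array was left out and 26 at a difference of at least 0.5. Over all genes these counts were 2062, 1995 to 2318 and 5832 (29.3% of genes). Over all genes, FR2 against FR1 called 1401 without genes under percentile 40, FR3 Klrg1- against FR2 called 1618 with array weights and 1432 with only the arrays compared, and leaving out 1 array gave 253 to 1331, 302 to 1318, 910 to 2063 and 721 to 1553. With the replicate number as a replicate block the counts were 2, 6, 9 and 1 (all genes 750, 812, 1550 and 848). The added call against FR2 was Egr1, lower in FR3 Klrg1- cells (-0.49, adjusted p = 0.0483). Same-numbered arrays shared deviations with correlations of 0.18, 0.14 and 0.02 over the 3 pairs of groups, with 2 numbers per group, and the labels do not say that a number marks a shared animal or day. In FR3 Klrg1+ cells the precision rests on 1 array.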

Other observations

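The array titled FR3 but carrying the marker text of FR1 was placed in no group. Its values for the members lay nearer the mean of the second set than that of the first for all 30. They fell within the range of the second set for 14 members, within that of the first for none, and in neither for 16. The same counts were not made over all genes, so they show nothing particular to the members. It read 7.57 for Nr4a3, 8.11 for Fos, 7.65 for Fosb, 9.86 for Cd69 and 11.03 for Egr2, and the median over the members was 8.68. Over all probe sets this array correlated at 0.973 to 0.975 with the second set and at 0.904 to 0.917 with the first.

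Within a gate the members also moved together from array to array of the first set. In FR3 Klrg1- cells 26 of the 30 were higher on replicate 2 than on replicate 1, with a median gap of 0.13, where 49.057% of all genes were higher. In FR2 cells 22 were higher (median 0.12), against 54.554% of genes, and in FR1 cells 28 were higher (median 0.18), against 48.044% of genes. These gaps are small beside the difference between the sets, whose median over the members was 2.03.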
